A study of Mus musculus with 8 samples.

Results

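The clustered histone genes are the 42 genes, of 19465 in the tables, whose symbols start with Hist1, Hist2, Hist3 or Hist4. Membership was set by name alone, and all 42 were counted. The group was picked with earlier results of these data known. Their families are the linker histone H1 with 6 genes, H2A with 8, H2B with 12, H3 with 8 and H4 with 8. Their RNA was read in 8 spatial transcriptomic sections of embryonic mouse diaphragm, the muscle that drives breathing. The study set the days E14.5 and E18.5 of embryonic development side by side, and asked what changes when CaV1.1 or β-catenin is missing. With a rank test over single spots, the paper reported histone genes as raised in muscle without CaV1.1 on both days. Here sums per section were tested instead, so the calls below are not the same measure.

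Each section came from its own embryo. At E14.5 the knockout of CaV1.1 (KO) was 1 section beside 3 controls. At E18.5 there were 2 controls, 1 section of the same KO and 1 section of a conditional knockout of β-catenin (β-cat cKO). Controls had at least 1 working allele of CaV1.1, the voltage-sensing calcium channel of skeletal muscle, and of β-catenin, a protein of cell junctions and Wnt signaling. The KO embryos came from CaV1.1 +/- parents, and in 1 of the 2 crosses used both parents also carried floxed β-catenin and 1 of them a Cre recombinase. In the cKO, β-catenin is removed by this Cre under the human skeletal actin (HSA) promoter, which acts in muscle fibers, so that other cells of the diaphragm keep the gene. A KO embryo could thus carry floxed β-catenin or the Cre, and the cKO could be CaV1.1 +/-. The sources used here do not give the cross of each section. Each mutant group is 1 section, and in its tests that section was assumed to vary as the controls do. All p-values rest on the spread between single sections, which may in part be technical.

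Core histones H2A, H2B, H3 and H4 form the spool on which DNA is wound, and H1 binds the linker DNA between spools. Most of the genes in these clusters are transcribed mainly during S phase, when new DNA needs new histones, and their messages are short-lived outside it. Such messages carry no poly(A) tail and end shortly after a stem-loop, to which the stem-loop binding protein SLBP attaches. Some of the genes can also give a longer, polyadenylated message, which cells that no longer divide can make. In embryonic muscle, dividing myoblasts leave the cell cycle as they fuse into fibers, while progenitors and connective tissue cells go on dividing. The assay used here counts pairs of DNA probes that bind the RNA itself, so it does not need a poly(A) tail.

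The members sit at 5 places in the GRCm38 genome. On chromosome 13, 5 lie between 21779883 and 22043676 and 25 between 23531050 and 23934851. On chromosome 3, 9 lie between 96219865 and 96270132. Chromosome 11 holds Hist3h2a and Hist3h2ba, between 58948920 and 58956830, and chromosome 6 holds Hist4h4, between 136801553 and 136804415. In the GENCODE vM21 transcripts, a histone stem-loop was found within 150 bases after the stop codon of 32 members (76.2%), against 49 of all 21846 coding genes (0.224%). It was searched on the transcript strand as a stem of 6 paired bases that opens with GG, ends its first arm in T and closes with CC, around a loop of 4 bases that starts with TT. Of the 10 members without a match, 7 have annotated transcripts that end under 50 bases after the stop codon, so that little or no sequence was left to search. The stem-loop is shown with 5 bases on each side, stem and loop in capitals, for members that stand for the 5 stem-loops found and lead the results.
Hist1h1c: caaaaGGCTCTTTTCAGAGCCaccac
Hist1h3b: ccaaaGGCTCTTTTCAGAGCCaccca
Hist1h2bb: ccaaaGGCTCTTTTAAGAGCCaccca
Hist2h2ac: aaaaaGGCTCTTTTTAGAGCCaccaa
Hist1h4h: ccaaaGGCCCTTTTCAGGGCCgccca
Hist1h4i: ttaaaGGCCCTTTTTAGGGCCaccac

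The stem and loop together, as printed for Hist1h1c and Hist1h3b, stood in 19 members, those of Hist1h2bb in 5 and those of Hist2h2ac in 1, and these differ in the loop alone. All 7 H4 members with a match had a stem that starts with GGCCC, and no member of another family did. The distance from stop codon to stem was 24 bases in Hist1h1c and 31 in Hist1h4h. The annotated transcript of Hist1h1c runs 880 bases past the stop codon and that of Hist2h3c1 runs 1213, and both hold the polyadenylation signal AATAAA close to their end, shown here in capitals.
Hist1h1c: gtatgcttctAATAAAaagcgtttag
Hist2h3c1: ttttaatcccAATAAAaatttaacac

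Promoter windows of 300 bases (250 before to 50 after the start site, RefSeq, GRCm38.p6) were found for 37 members. The CCAAT box, a general promoter element, stood in 33 of the 37 (89.2%) on either strand, against 41.1% of the 27025 genes with a window. TATAAA, the TATA box, stood in 22 (59.5%), against 15.7%. The octamer ATTTGCAT, the site of Oct factors, stood in 11 (29.7%), against 1.97%, and these were 5 of 8 H2A and 6 of 10 H2B windows. AAACACA, known as the H1 box, stood in 8 (21.6%), against 8.22%, with 5 of the 6 H1 windows among them. The windows of Hist1h2aa and Hist1h2ba overlap, so the same octamer and the same H1 box count for both genes. Leading members are shown in the gene's direction with the motif in capitals. The motifs of Hist1h1c, Hist1h1e and Hist1h1d lie 112, 115 and 122 bases before the start site. In Hist1h2ab the octamer lies on the opposite strand, so its reverse complement is shown.
Hist1h1c: agtgtaacAAACACAagttgggc
Hist1h1e: ggtgtaacAAACACAactccgca
Hist1h1d: ggggcaacAAACACAgccacaag
Hist1h2bb: agtctcttATTTGCATaaagcctt
Hist2h2bb: gaaacctcATTTGCATacaagctc
Hist1h2bk: ttcactttATTTGCATacgaagtt
Hist1h2ab: aggcctttATGCAAATgaggagct

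The sections held 14179161 to 82859104 UMIs (unique molecular identifiers, 1 per captured probe pair), with a median of 15434 to 45284 per spot. The sections were 5 µm thick and fixed in formalin, and spots of 55 µm at a spacing of 100 µm each cover several cells. With at least 1000 UMIs asked of a spot, 683 to 3460 spots per section were kept. Control values are always given in the order of the section numbers. Levels are given as CPM, the UMIs of a gene or list per 1000000 UMIs of the same spots. Muscle spots, 491 to 3092 per section, are those above the Otsu threshold of 9 sarcomere genes. These genes held 16235 to 27362 CPM in muscle at E14.5 and 71384 to 131917 at E18.5. Spots called outside muscle were not free of them, with 3110 to 8681 CPM at E14.5 and 15872 to 47828 at E18.5. As a check of the labels, Cacna1s, the gene of CaV1.1, stood at 13.4 normalized CPM in KO muscle at E14.5 against 14.96 to 18.4 in controls, and at 29.7 against 84.4 and 87.3 at E18.5. Its log2 fold change was -0.30 ± 0.14 (SE, adjusted p = 0.340) at E14.5 and -1.53 ± 0.15 (adjusted p = 0.00133) at E18.5. Ctnnb1, the gene of β-catenin, differed by -0.07 ± 0.12 in cKO muscle (adjusted p = 0.770). Whether the probes lie in the deleted parts is not known, so these values do not settle the labels.

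In all, 143648 to 647484 histone UMIs were counted per section, and at least 99.7% of the spots of every section held 1 or more. All 8 sections held UMIs of 39 members. Hist1h2aa, Hist1h2ba and Hist1h3f had under 20 UMIs over all sections. The filter on low counts left 37 members in muscle, where Hist1h2bh and Hist1h4d were not tested either. The 12 members with most UMIs held 91.0% to 93.2% of the histone UMIs in muscle. H2A held 2.18% to 3.03% and H4 3.80% to 6.12%, whereas H1, H2B and H3 held most of the rest. Probe number and efficiency differ between genes, so these shares describe the sums and do not rank the genes. Near-identical copies are a limit: most 50-base windows were shared with another histone transcript in 9 members, among them Hist1h3b (60.4%), Hist1h2bj (59.4%), Hist1h2bk (74.2%), Hist1h2ag (78.9%), Hist2h3c2 (63.5%) and Hist2h2aa1 (89.2%), and UMIs of such members could belong to a relative.

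Between E14.5 and E18.5, the share of histone messages in control muscle was several-fold smaller. The 42 genes together held 13360, 14280 and 13016 CPM in muscle of the 3 control sections of E14.5 and 4023 and 2971 in the 2 of E18.5. The stages did not overlap, and the ratio of the means, 3497 ± 744 (SD, n = 2) to 13552 ± 654 (SD, n = 3), was 0.258. Because muscle spots at E18.5 hold many more sarcomere messages, the ratio was taken again over smaller UMI totals. With hemoglobins and only the sarcomere genes used to call muscle spots left out of the totals, it was 0.289. Other muscle genes stayed in, so a shift toward muscle messages was removed only in part. Over all UMIs but without Hist1h1c, the most abundant member, the ratio was 0.223. A median muscle spot held 130 to 140 histone UMIs per 10000 in E14.5 controls, and 28.0 to 37.4 at E18.5. Sums over spots cannot tell fewer cells from less RNA per cell.

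**Figure D1:**
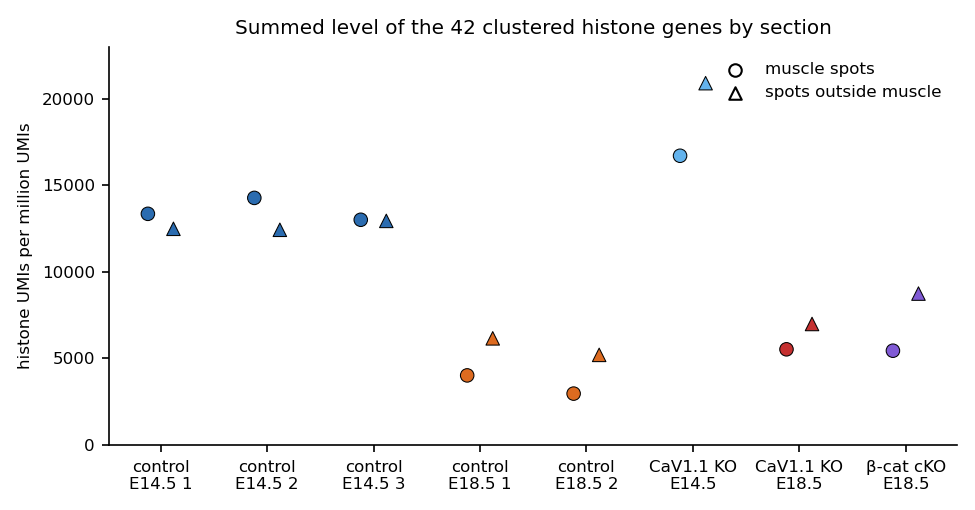
Histone UMIs as CPM (y axis) in each of the 8 sections (x axis), with 1 circle for muscle spots and 1 triangle for spots outside muscle. The E14.5 control sections lie between 12437 and 14280, the E18.5 controls between 2971 and 6165, and the mutant sections above the controls of their own day and position.

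Single members were tested with edgeR's quasi-likelihood test on UMIs summed per section, with p-values adjusted over all genes. Fold changes are on the log2 scale with TMM normalization and so are relative to the typical gene, whose change was close to 0. Of the 37 members tested in muscle, 27 were lower at E18.5 and 2 higher, with a median of -1.28. Over all 14832 genes tested, 32.3% were lower and 33.2% higher, so that the share of members that was lower is above that of all genes. Not called were Hist1h2ac, Hist3h2a, Hist1h2bg, Hist2h2be, Hist2h3c1, Hist2h3c2, Hist1h4c and Hist2h4. With library size as the only scaling, the median of all genes was -0.73 and that of the members -2.005, and 31 members were lower. Leaving out 1 control at a time, 25 to 30 members were called.

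All 6 H1 genes were lower at E18.5. Hist1h1c, a linker histone also made outside S phase, stood at 1837, 2057 and 1836 CPM in the 3 control sections of E14.5 and at 917 and 893 in the 2 of E18.5. The stages did not overlap, but its change of -0.36 ± 0.11 (adjusted p = 0.0239) was the smallest of the H1 genes, and the call was lost without E14.5 control 2 (adjusted p = 0.0856), E18.5 control 1 (0.0817) or E18.5 control 2 (0.129). Hist1h1a stood at 461, 553 and 528 at E14.5 and at 107 and 80.02 at E18.5, a change of -1.74 ± 0.15 (adjusted p = 3.05e-05). Hist1h1e had 1009, 1064 and 954 CPM, then 307 and 243. Hist1h1d had 801, 850 and 795, then 267 and 171. These changes were -1.15 ± 0.14 for Hist1h1e (adjusted p = 0.000202) and -1.17 ± 0.19 for Hist1h1d (adjusted p = 0.00092). Hist1h1t, the testis linker histone, was near the floor with 22 to 88 UMIs per E14.5 section and 21 and 17 at E18.5. Its change was -2.16 ± 0.43 (adjusted p = 0.00277). The part of Hist1h1c in the histone UMIs of muscle was 13.8% to 14.4% at E14.5, and 22.8% and 30.1% at E18.5.

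Of 7 H2A genes tested, 4 were lower and 1 higher. Hist1h2ag stood at 114, 120 and 94.6 CPM in the 3 control sections of E14.5 and at 23.47 and 9.79 in the 2 of E18.5, a change of -1.999 ± 0.34 (adjusted p = 0.00116). Hist1h2ab had 14.1, 17.1 and 12.9 at E14.5, then 2.41 and 1.22, which gave the largest fall of any member at -2.29 ± 0.29 (adjusted p = 0.000257). Hist2h2aa1 had about 1 CPM in every control, from 0.781 to 1.17 at E14.5 and 1.09 and 1.08 at E18.5. Its groups overlapped on this scale, and its call (0.96 ± 0.31, adjusted p = 0.0267) was made against the typical gene, whose CPM went down. It was lost with library size as the only scaling, with DESeq2, and without E14.5 control 1 (adjusted p = 0.0573), E14.5 control 2 (0.0913), E18.5 control 1 (0.0751) or E18.5 control 2 (0.0678).

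Among 10 H2B genes tested, 7 were lower and 1 higher. Hist2h2bb stood at 1122, 1238 and 1135 CPM in the 3 control sections of E14.5 and at 226 and 143 in the 2 of E18.5, a change of -1.94 ± 0.20 (adjusted p = 9.19e-05). Hist1h2bb had 1183, 1244 and 1091, then 273 and 171. Hist1h2bj had 1115, 1107 and 944, then 233 and 137. Their changes were -1.68 ± 0.21 for Hist1h2bb (adjusted p = 0.00022) and -1.79 ± 0.24 for Hist1h2bj (adjusted p = 0.000311). Hist1h2bk had 546, 517 and 490, then 144 and 85.8, with -1.45 ± 0.22 (adjusted p = 0.000653). In each of these genes the E18.5 controls lay far under all E14.5 controls.

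Hist1h2bc went the other way and was singled out for that after its values were seen. It stood at 137, 119 and 111 CPM in muscle of the 3 control sections of E14.5 and at 277 and 266 in the 2 of E18.5, so the E18.5 controls were higher without overlap. Its change was 1.87 ± 0.13 (adjusted p = 1.15e-05), and it remained called under all alternatives run. It held 0.835% to 1.02% of the histone UMIs in E14.5 control muscle, and 6.88% and 8.95% at E18.5. The gene lies on chromosome 13 from 23684199 to 23692908, on the plus strand. Its annotated transcript has 2 exons: the coding exon ends 9 bases after the stop codon and is joined over a gap of 7554 bases to a second exon, so that 742 bases follow the stop codon. No stem-loop was found in that spliced transcript. Hist2h2be and Hist1h4a also have longer transcripts with no stem-loop found, and their changes were 0.41 ± 0.20 (adjusted p = 0.115) and -1.81 ± 0.28 (adjusted p = 0.000722).

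Of 7 H3 genes tested, 5 were lower. Hist1h3b stood at 1458, 1528 and 1457 CPM in the 3 control sections of E14.5 and at 336 and 216 in the 2 of E18.5, a change of -1.70 ± 0.19 (adjusted p = 0.000144). Hist1h3c had 1343, 1418 and 1302, then 317 and 180, with -1.72 ± 0.23 (adjusted p = 0.000368). Hist1h3d had 1216, 1279 and 1074, then 245 and 138, with -1.91 ± 0.25 (adjusted p = 0.000282). The H3 share of histone UMIs in muscle was 30.1% to 30.6% at E14.5 and 23.1% and 18.7% at E18.5. Not called were Hist2h3c1 (0.40 ± 0.18, adjusted p = 0.0898) and Hist2h3c2 (0.02 ± 0.21, adjusted p = 0.954). Hist2h3c2 stood at 12.2, 14.2 and 16.7, then at 10.9 and 6.61, so that it was lower in CPM without being lower than the typical gene. Of 7 H4 genes tested, 5 were lower. Hist1h4h stood at 356, 413 and 391, then at 118 and 74.7, with -1.28 ± 0.19 (adjusted p = 0.000571).

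**Figure D2:**
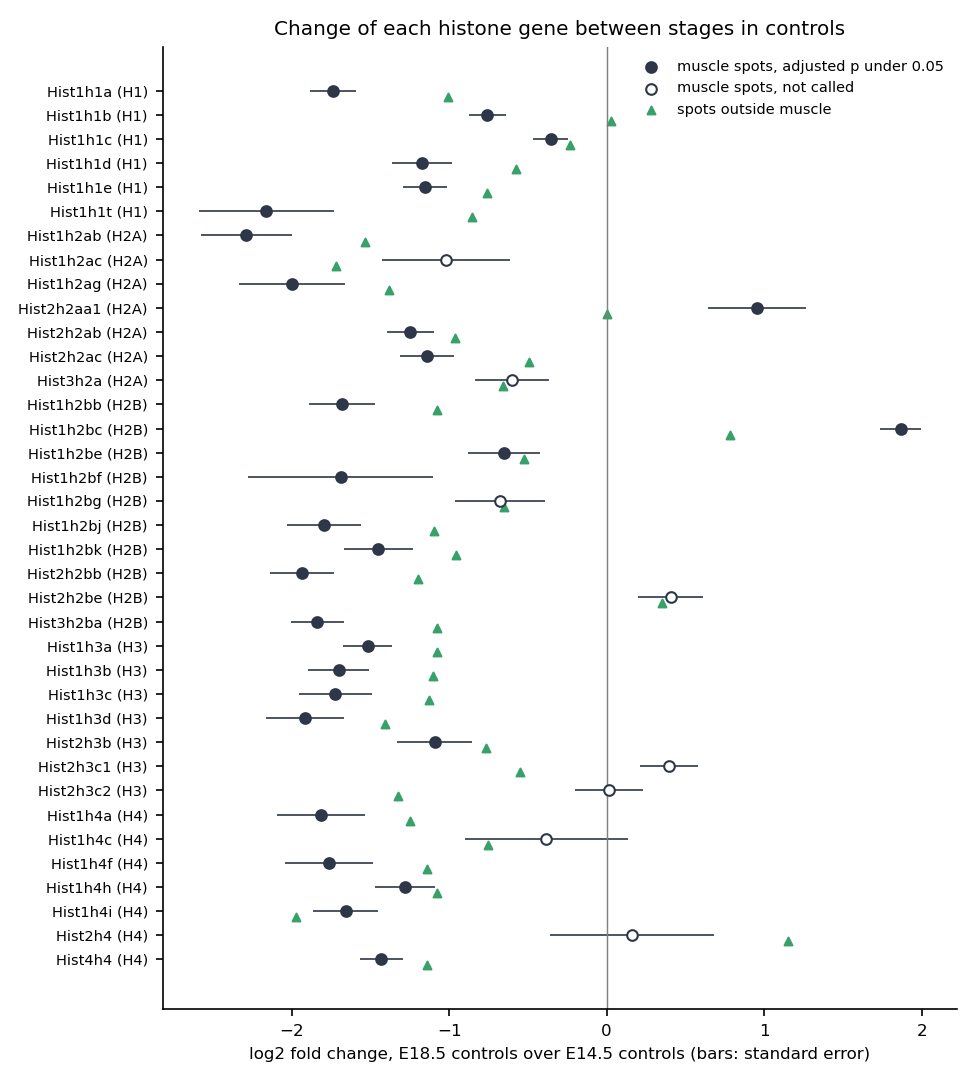
Log2 fold change from E14.5 to E18.5 controls (x axis) for the 37 members tested in muscle (rows), as circles with the standard error for muscle spots, filled where the adjusted p is under 0.05, and as triangles for spots outside muscle. In muscle 27 members are called on the left and 2 on the right, with Hist1h2bc at 1.87.

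By genomic place, all 5 members of the first place on chromosome 13 were lower in muscle at E18.5 (median -1.66), and so were 16 of the 20 tested in the second place (median -1.60), where Hist1h2bc was the 1 member higher. On chromosome 3, 4 of 9 were lower and 1 higher, with a median of 0.02. Over the 8 sections these 9 held a mean of 930 CPM in muscle, of which Hist2h2bb, with a change of -1.94, held 763. Hist2h4, Hist2h2aa1, Hist2h3b and Hist2h2be held only 0.494, 1.05, 2.82 and 2.94, so the median rests in part on members near the floor. By transcript, 21 of 29 tested members with a stem-loop were lower and 1 higher (median -1.43). All 5 tested members whose transcripts end close to the stop codon were lower (median -1.25). These splits are descriptions, and the differences between them were not tested.

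Genes of the cell cycle and of histone supply were read from lists, which share some genes, so their counts are not independent. Nasp and Chaf1b are in both the S phase and chaperone lists. Slbp and Casp8ap2 are in the S phase and 3-prime end lists, and Cenpa in the G2 and M phase and replication-independent lists. All 41 S phase genes tested in muscle were lower at E18.5, with a median of -1.70, and so were 46 of 47 G2 and M phase genes (median -1.67). Mcm6, a helicase subunit of DNA replication, stood at 241, 257 and 240 CPM in the 3 control sections of E14.5 and at 55.7 and 41.7 in the 2 of E18.5 (-1.61 ± 0.14, adjusted p = 3.075e-05). Mki67, a marker of dividing cells, had 475, 517 and 466, then 99.3 and 69.0 (-1.81 ± 0.17, adjusted p = 5.01e-05). Of 11 histones listed as replication-independent, most of which are made outside S phase too, 10 were lower with a median of -0.97. H1f0, the linker histone of resting cells, was the 1 not called, at 336, 378 and 374, then 221 and 247 (0.09 ± 0.10, adjusted p = 0.435). Of 11 genes for the histone message 3-prime end, 9 were lower and 1 higher (median -0.85), the latter being Sympk, a scaffold of the cleavage complex (0.54 ± 0.08, adjusted p = 0.000507). Of 13 histone chaperones, 10 were lower and 1 higher (median -0.54).

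Markers of other cells moved with stage too. In control muscle, 4 myogenic progenitor genes held 216 to 241 CPM at E14.5, and 75.04 and 77.6 at E18.5. The 6 erythroid genes, all detected in every section, ranged from 116 to 3697 at E14.5, and stood at 706 and 698 at E18.5. Their part in the stage change was not tested. Over spots low in erythroid and hepatocyte genes, added after seeing the data, the summed ratio was 0.259. This kept 549 of 549, 475 of 571 and 541 of 581 muscle spots in E14.5 controls 1 to 3. In E18.5 controls 1 and 2 it kept 3029 of 3092 and 2188 of 2199. With so few spots left out, the ratio cannot show the part of these cells.

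Outside muscle the histone share was lower at E18.5 as well. The summed level was 12494, 12437 and 12952 CPM in the 3 control sections of E14.5 and 6165 and 5209 in the 2 of E18.5, without overlap and at a ratio of 0.450. Of 36 members tested, 18 were lower and 1 higher (median -0.99), against 14% lower and 16.6% higher of 14799 genes. Hist1h4i stood at 36.9, 32.9 and 42.7, then at 12.2 and 2.90 (-1.98 ± 0.57, adjusted p = 0.0434), a call lost without any 1 of the E14.5 controls (adjusted p of 0.0662 to 0.105). Hist1h3d had 1099, 1089 and 980, then 380 and 266 (-1.41 ± 0.22, adjusted p = 0.00731). Hist1h2ag had 101, 101 and 81.6, then 38.3 and 20.9 (-1.38 ± 0.30, adjusted p = 0.0185), and its call was lost without E14.5 control 2 (adjusted p = 0.0574). The 1 member higher was Hist1h2bc at 104, 91.3 and 89.1, then 158 and 107 (0.78 ± 0.21, adjusted p = 0.0349), a call lost without E14.5 control 2, E14.5 control 3 or E18.5 control 1, with adjusted p of 0.105, 0.0999 and 0.123. Without E18.5 control 1 its change was 0.42, and with library size as the only scaling it was 0.48 (adjusted p = 0.0858). The tissue outside muscle differed between the stages too, and these spots held muscle RNA as well. The 9 sarcomere genes held 8681, 5636 and 6262 CPM in them in the 3 control sections of E14.5 and 47828 and 31869 in the 2 of E18.5. There the 6 fibroblast genes held 12087, 14615 and 17639 CPM in the 3 control sections of E14.5 and 30565 and 37341 in the 2 of E18.5, and the 6 tendon genes 1146, 1508 and 2367, then 3647 and 4251. The 6 hepatocyte genes held 23.8, 2136 and 3660, then 10368 and 1.88. What these tissues add was not tested. Over spots low in erythroid and hepatocyte genes, chosen after seeing the data, the ratio was 0.481, and 19 members were lower and 1 higher.

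Within a section, muscle and other spots were compared with the section as a block. At E14.5, 15 of 39 members were higher in muscle and 0 lower (median 0.26), against 21.8% higher and 15.6% lower of 15482 genes. Hist1h2bc (0.59 ± 0.11), Hist1h2ag (0.43) and Hist1h2bj (0.42) led. The count rests on the scaling and on single sections: with library size as the only scaling 1 was higher and 1 lower, while all genes moved by -0.20, and without E14.5 control 1, 2 or 3 the calls were 6, 2 and 9. At E18.5, 3 members were higher in muscle and 7 lower (median -0.08), against 29.1% and 24.1% of all genes. With library size alone 25 were lower and 2 higher, while all genes moved by -0.71. Without E18.5 control 1 or 2, 16 and 5 were called.

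Among the members called at E18.5, Hist1h2bc had the largest excess in muscle. Hist1h2bf and Hist1h2bh had larger ratios without a call, from at most 16 UMIs per control and area. In E18.5 controls 1 and 2 it stood at 277 and 266 CPM in muscle and at 158 and 107 outside, a log2 ratio of 1.76 ± 0.13 (adjusted p = 5.02e-05). In the cKO it had 311 in muscle against 145 outside (1.72 ± 0.18, adjusted p = 0.000503), and in the KO at E18.5 239 against 125 (1.20 ± 0.19, adjusted p = 0.0068). In the KO at E14.5 the values were 127 and 122 (0.23 ± 0.18, adjusted p = 0.466). Of 39 members, 0 were called in that section (edgeR, with 2 at an unadjusted p under 0.05, and DESeq2 not reported here). In the KO at E18.5 1 was called and in the cKO 5. The shares of all genes called were 11.5%, 15.9% and 34.4%, in this order. Hist2h3c2, at 10.9 and 6.61 in muscle against 6.81 and 2.46 outside, had 1.67 ± 0.22 (adjusted p = 0.000604), and Hist2h3c1 had 1.20 ± 0.26, lost without E18.5 control 2 (adjusted p = 0.0680). On the other side Hist3h2ba stood at 2.85 and 2.10 in muscle against 6.24 and 7.39 outside (-0.76, lost without E18.5 control 2 at adjusted p = 0.173). Hist1h1b had 34.4 and 26.6 against 73.5 and 64.6 (-0.48), and Hist2h2bb 226 and 143 against 440 and 376 (-0.47).

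The difference between stages of the muscle ratio was tested itself. It was called in 15 of 39 members, 2 higher and 13 lower at E18.5, against 12.3% and 6.36% of all genes. Hist1h2bc went from 0.59 to 1.76 and Hist2h3c2 from 0.18 to 1.67. Among those lower, Hist2h2bb went from 0.23 to -0.47, Hist1h1a from 0.35 to -0.33 and Hist1h3b from 0.33 to -0.24. Of the cell cycle genes, 14 of 41 S phase genes and 21 of 47 G2 and M phase genes also had a lower ratio. Without E14.5 controls 1, 2 or 3, or E18.5 control 2, 8, 3, 10 and 4 members were called.

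**Figure D3:**
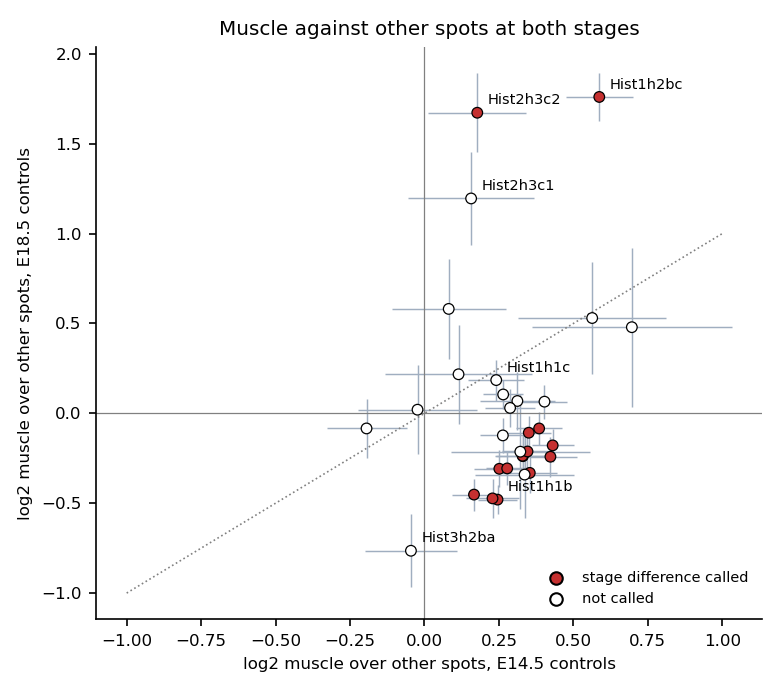
Log2 ratio of muscle to other spots for 31 members with a mean muscle level over 2 CPM, in E14.5 controls (x axis) and E18.5 controls (y axis), with standard errors, the line of equal values dotted, and members filled where the stage difference is called. Hist1h2bc and Hist2h3c2 lie far above the line, and 13 members lie under it and are filled.

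Distance to the nearest spot outside muscle, called depth here, gave an order at E18.5. A section edge without such spots did not count as a border, so muscle beside it could fall in a deep bin. Muscle spots were set in 4 bins by their distance to the nearest spot outside muscle: up to 150 µm, 150 to 250, 250 to 350 and over 350 µm. In this order the 42 genes held 4886, 4259, 3969 and 3835 CPM in E18.5 control 1 and 3793, 3336, 3046 and 2809 in control 2. The KO at E18.5 had 6180, 5470, 5012 and 4710, and the cKO 6480, 5604, 5027 and 5172. All 4 sections were thus highest at the border. Hist1h3b had 424 at the border and 312 at the greatest depth in E18.5 control 1, 321 and 198 in control 2, 670 and 433 in the KO, and 628 and 474 in the cKO. Hist1h2bc had the opposite order in all 4, with 244 and 284 in E18.5 control 1, 208 and 274 in control 2, 193 and 293 in the KO, and 235 and 335 in the cKO. At E14.5 the controls had no common direction, with 12794 to 14952 for the sum and 87.1 to 139 for Hist1h2bc. S phase genes held 964 at the border and 705 at the greatest depth in E18.5 control 1, and 893 and 566 in control 2. The KO of that day had 1570 and 1196, and the cKO 1324 and 942. Spots near the border can take in tissue outside muscle, where the histone share was higher at E18.5, and this mixing was not tested. Bins within 1 section are not replicates, so no test was made.

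**Figure D4:**
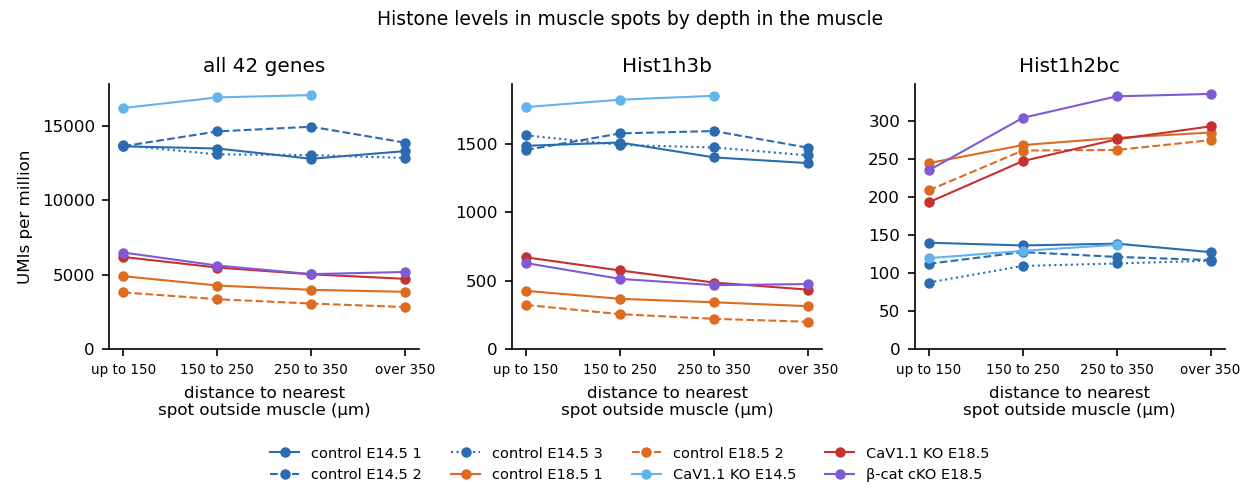
CPM (y axes, from 0) in muscle spots by distance to the nearest spot outside muscle in µm (x axes), 1 line per section, for all 42 genes, Hist1h3b and Hist1h2bc; the last bin of the KO at E14.5 had too few spots and is not drawn. At E18.5 the sum and Hist1h3b are highest near the border (4886 against 3835 in control 1 for the sum), and Hist1h2bc is highest at depth (284 against 244).

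Single spots varied. The middle 90% of muscle spots ranged from 97.7 to 170 histone UMIs per 10000 in E14.5 control 1 and from 20.2 to 63.6 in E18.5 control 1. Across the muscle spots of a section (491 to 3092 spots), the histone rate correlated with that of S phase genes at Pearson r of 0.257 to 0.535 and with that of G2 and M phase genes at 0.292 to 0.639. Outside muscle (102 to 580 spots) r was 0.315 to 0.696 and 0.458 to 0.761. All rates of a spot share its UMI total, with which the histone rate correlated at -0.136 to 0.277, and neighboring spots are not independent. By tissue, the 10% of spots richest in muscle genes held 0.649, 0.69, 0.69 and 0.63 times the histone rate of the rest at E18.5 (controls 1 and 2, KO and cKO). At E14.5 these spots held 0.890, 0.906 and 0.962 times in controls 1 to 3 and 0.827 times in the KO. The 10% richest in fibroblast genes held 0.902, 0.768 and 0.867 times the rate of the rest in E14.5 controls 1 to 3 and 0.686 times in the KO of that day. At E18.5 they held 1.42 and 1.54 times in controls 1 and 2, 1.22 times in the cKO and 1.004 times in the KO. This was not particular to fibroblast genes. Spots richest in macrophage genes held 1.39 and 1.51 times in those controls, 1.25 times in the cKO and 1.13 times in the KO.

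**Figure D5:**
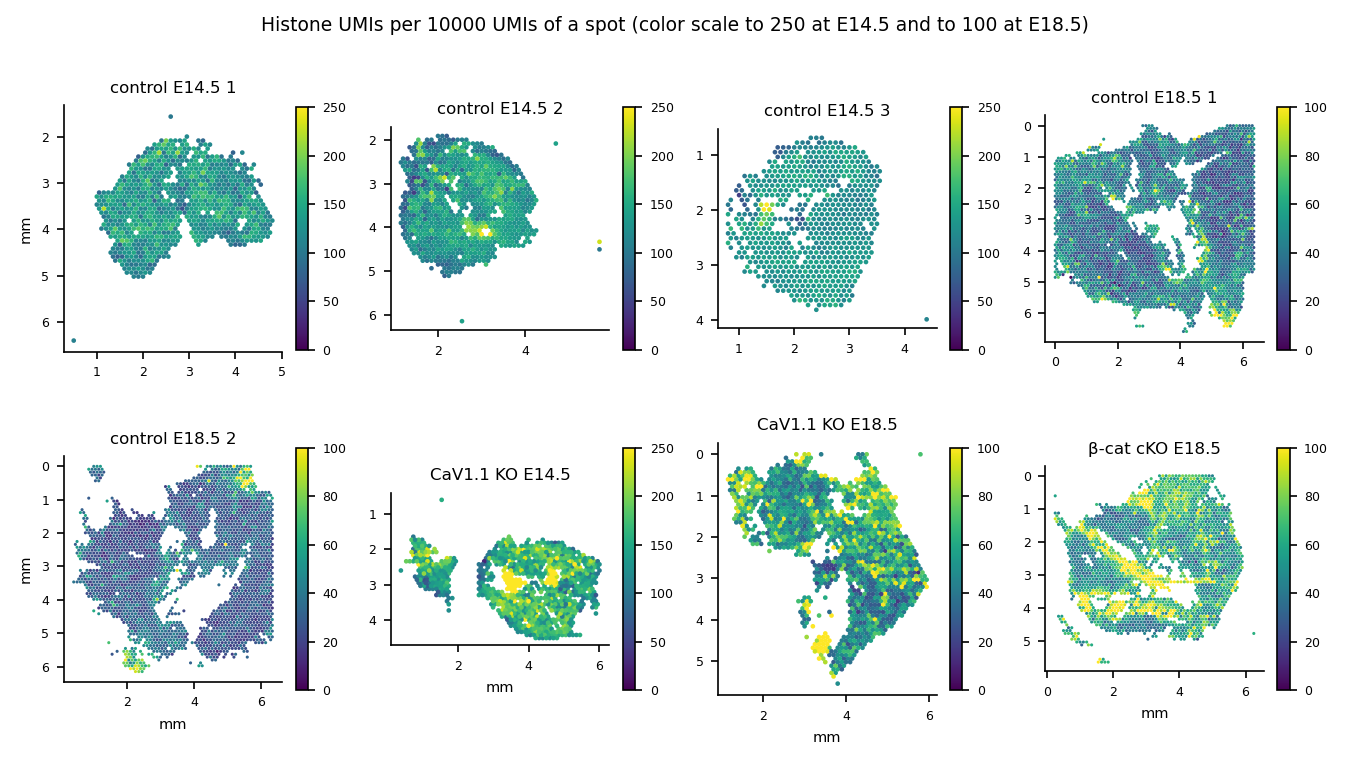
Maps of the spots of the 8 sections (axes in mm), colored by histone UMIs per 10000 UMIs of the spot on a scale that ends at 250 at E14.5 and at 100 at E18.5. Muscle spots of E14.5 controls have medians of 130 to 140, and those of E18.5 controls 28.0 to 37.4; the KO at E14.5 has patches at the top of its scale outside muscle.

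Within muscle, the central zone (the top 15% of muscle spots by 8 endplate genes) was compared with the peripheral zone (the top 15% by 4 myotendinous genes). At E14.5 the summed level was 12678, 13064 and 12926 CPM in the center of controls 1, 2 and 3, and 12325, 13298 and 12786 in the periphery, so the zones overlapped. In the muscle between them it was 13729, 14769 and 13086. Of 36 members 2 were higher in the center, against 11.8% of 14170 genes. They were Hist1h1a (0.17 ± 0.05, adjusted p = 0.00815) and Hist1h3c (0.13 ± 0.04, adjusted p = 0.0311). Both were lost with zones of 10% of the spots, with zones set by distance, or without E14.5 control 1 (adjusted p of 0.111 and 0.183), and Hist1h3c also without control 2 (0.0676). At E18.5 the center held 4487 and 3171, the periphery 4440 and 3441, and the muscle between them 3827 and 2830. No member was called by edgeR (0 of 36, against 20.9% of all genes), 2 had an unadjusted p under 0.05, and DESeq2 called 0. Without E18.5 control 2 the count was 1.

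Each zone was also set against the muscle between them, a comparison chosen after seeing the data. At E14.5 Hist1h2bc was higher in the center (0.18 ± 0.05, adjusted p = 0.0181) and in the periphery (0.20 ± 0.06, adjusted p = 0.0215), and at E18.5 it was lower in both (-0.22 ± 0.05, adjusted p = 0.000785, and -0.31 ± 0.05, adjusted p = 2.24e-06). With TMM scaling it held 352 and 332 CPM in the center of E18.5 controls 1 and 2, 334 and 309 in the periphery and 407 and 392 between them. At E14.5 it was the 1 member called in the center of 36 tested (median -0.09, against 7.16% higher and 7.35% lower of all genes). In the periphery of that day it was the 1 member higher while 10 were lower, against 3.21% and 4.45%. Those lower had small changes, such as -0.19 ± 0.04 for Hist1h3c (adjusted p = 0.00389), and the median of all members was -0.15.

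At E18.5 the center had 7 members higher and 1 lower, against 4.15% and 7.9% of all genes. Among them were Hist1h2bk (0.23 ± 0.05, adjusted p = 0.00345) and Hist1h3b (0.19 ± 0.05, adjusted p = 0.0152), and the median was 0.13. The periphery had a median of 0.05, with 4 higher and 2 lower against 11.2% and 19.6%, neither share exceeding that of all genes. Those higher were linker histone genes Hist1h1a, Hist1h1b and Hist1h1d and the H2B gene Hist1h2bj, and those lower Hist1h2bc and Hist2h3c1. These counts turn on single sections. Without E14.5 control 1, 2 or 3, the center of E14.5 had 0, 1 and 7 members called and the periphery had 0, 1 and 12. Without E18.5 control 1 or 2, the center of E18.5 had 0 and 1 and the periphery had 3 and 1. The calls of Hist1h2bc at E14.5 ended without control 1 or control 2 (adjusted p of 0.0712 to 0.377), and that in the center at E18.5 without either E18.5 control (0.0607 and 0.0709). That in the periphery at E18.5 held without either, and ended with library size as the only scaling (-0.10, adjusted p = 0.0511). By that scaling 16 members were higher at E18.5 in the center, 17 were so in the periphery and 0 were lower, while the median of all genes was 0.10 and 0.17. With zones set by distance Hist1h2bc turned its direction in 3 of the 4 comparisons and was at -0.62 in the periphery at E18.5.

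In the CaV1.1 KO at E14.5, muscle held 16715 CPM of histone UMIs, above the 13016 to 14280 of the controls, a ratio of 1.23. Of the leading members, Hist1h1c had 2121 against 1836 to 2057, Hist1h3b 1812 against 1457 to 1528, Hist1h3d 1754 against 1074 to 1279, Hist2h2bb 1501 against 1122 to 1238 and Hist1h4h 569 against 356 to 413, so the KO section lay above all controls in each. Hist1h2bc, at 127, lay within them. How many of all genes lay above all controls in this section was not counted. No member passed edgeR's test (0 of 37, median 0.23, against 2.08% of all genes), 7 had an unadjusted p under 0.05, and DESeq2 called 1. Without E18.5 control 1 or without E18.5 control 2, which share in the estimate of the spread, 3 were higher. S phase genes had a median of 0.08 with 0 of 41 called, and 1 of 11 replication-independent histones was higher, H2afy2, a macroH2A (0.59 ± 0.11, adjusted p = 0.0404).

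Outside muscle the same section stood at 20910 CPM of histone UMIs against 12437 to 12952, a ratio of 1.66. Hist1h3b had 2279 against 1312 to 1435, Hist1h3d 2113 against 980 to 1099 and Hist1h1c 2723 against 1723 to 2012, again above all controls. The share of all genes that did so was not counted here either. Of 36 members 35 had a positive fold change (median 0.68). None passed edgeR's test, nor did any of the 14799 genes (0%), while 18 members had an unadjusted p under 0.05 and DESeq2 called 12, all higher. In these spots 6 erythroid genes held 24868 CPM against 241 to 13444 in controls, and 6 hepatocyte genes 7042 against 23.8 to 3660, and all of them were detected in the section. The 10% of its spots richest in erythroid genes had 1.52 times the histone rate of the rest, and those richest in hepatocyte genes 1.61 times. Over the 305 of 401 spots in which both lists together held at most 0.5% of UMIs, chosen after seeing the data, the level was 17765 against 10806 to 12494 in controls treated alike, a ratio of 1.53. The 9 sarcomere genes held 3110 CPM in all spots outside muscle of this section against 5636 to 8681 in controls. What other tissue adds to the remaining difference was not tested. The median spot outside muscle had 10512 UMIs against 13327 to 35148 in controls.

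In the CaV1.1 KO at E18.5, muscle held 5531 CPM of histone UMIs against 4023 and 2971 in the controls, a ratio of 1.58. The typical gene moved as well: the 9 sarcomere genes held 71384 CPM against 128417 and 131917, and with library size as the only scaling the median gene was 0.54 higher and the median member 0.69. Relative to the typical gene the median of the members was 0.15. Of 37 members 2 were higher and 2 lower, against 10.6% higher and 15.2% lower of all genes. Hist1h3a stood at 33.4 CPM against 13.7 and 9.77 (0.96 ± 0.20, adjusted p = 0.0132). Hist1h1a stood at 240 against 107 and 80.02 (0.82 ± 0.18, adjusted p = 0.0159). In both the KO lay above each control. Hist1h2bc, at 239 against 277 and 266, was lower (-0.72 ± 0.18, adjusted p = 0.0246), as was Hist2h3c2 at 6.08 against 10.9 and 6.61 (-1.07 ± 0.32, adjusted p = 0.0459). The counts turn on single controls: without E18.5 control 1, 10 members were higher and 0 lower, and without E18.5 control 2, 2 were higher and 4 lower. Both lower calls ended without E18.5 control 1 (adjusted p of 0.0550 for Hist1h2bc and 0.0766 for Hist2h3c2), and that of Hist2h3c2 also without any 1 of the E14.5 controls (0.0568 to 0.0719). With library size as the only scaling both ended as well, at -0.18 (adjusted p = 0.287) for Hist1h2bc and -0.53 (adjusted p = 0.213) for Hist2h3c2.

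In the same muscle, of 41 S phase genes 15 were higher and 0 lower, with a median of 0.50, and of 47 G2 and M phase genes 8 were higher and 1 lower (median 0.32). Mcm6 stood at 100 CPM against 55.7 and 41.7 (0.50 ± 0.17, adjusted p = 0.0689), and Nasp, a histone chaperone, at 77.2 against 40.0 and 33.8 (0.52 ± 0.16, adjusted p = 0.0476). Of 13 chaperones 4 were higher and 1 lower, and of 11 replication-independent histones 3 were higher. None of the 11 genes for the 3-prime end was called, and SLBP's gene Slbp had 0.36 ± 0.12 (adjusted p = 0.0670). Myogenic progenitor genes held 131 CPM in the KO against 75.04 and 77.6. Their part in the values was not tested.

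Outside muscle the KO at E18.5 had 6995 CPM of histone UMIs against 6165 and 5209, a ratio of 1.23. The 9 sarcomere genes held 20090 CPM there against 47828 and 31869, and their part was not tested. Of 36 members 0 were called by edgeR (median -0.03, against 0.108% of all genes), 3 had an unadjusted p under 0.05 and DESeq2 called 1. The difference between stages of the KO effect in muscle was tested and called in 0 of 37 members (against 6.4% of all genes). An unadjusted p under 0.05 was seen in 6, and DESeq2 called 1. Without E14.5 control 1 or without E18.5 control 2, 1 and 4 were called, all lower.

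The β-cat cKO was set against the same E18.5 controls as the KO, so the values of both mutants are not independent. Its muscle held 5450 CPM of histone UMIs against 4023 and 2971, a ratio of 1.56, with the median gene 0.21 and the median member 0.58 higher by library size alone. Relative to the typical gene 31 of 37 members were on the higher side (median 0.36). Hist1h1c had 1173 against 917 and 893, Hist1h3b 506 against 336 and 216, Hist2h2bb 364 against 226 and 143 and Hist1h2bb 385 against 273 and 171, and the cKO lay above both controls in each. The share of all genes that lay above both controls was not counted. For the members just named, fold changes of 0.16, 0.66, 0.76 and 0.58 did not pass the test. No member did (0 of 37, against 8.8% of all genes), 4 had an unadjusted p under 0.05, and DESeq2 called 3. The call turns on 1 control: without E18.5 control 1, 17 members were higher, and without E18.5 control 2, 0. Of S phase genes 2 of 41 were higher (median 0.42), and of G2 and M phase genes 2 of 47. Outside muscle the cKO had 8751 against 6165 and 5209, a ratio of 1.54, and 0 of 36 members were called (median 0.45, against 1.22% of all genes), with 6 at an unadjusted p under 0.05 and 3 called by DESeq2. The 6 fibroblast genes held 22525 CPM there against 30565 and 37341, and the 5 smooth muscle genes 2464 against 498 and 908. The 9 sarcomere genes held 15872 against 47828 and 31869, and the part of these tissues was not tested.

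The E18.5 mutants were also set against each other in muscle, as 1 section each. Their summed levels of 5531 and 5450 were close, and of 37 members 0 were called (median -0.37 for KO over cKO, against 7.3% of all genes). An unadjusted p under 0.05 was seen in 4, and DESeq2 called 2. Without E14.5 control 1, E18.5 control 1 or E18.5 control 2, 1, 2 and 2 were called, all lower in the KO. Hist1h2bc stood at 239 in the KO and 311 in the cKO (-0.70), and Hist1h1a at 240 and 172 (0.16). The families stood side by side with H1 at 41.2% and 39.4%, H2B at 27.0% and 29.0% and H3 at 25.8% and 24.6% of the histone UMIs.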

How the data were processed

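For 8 sections of embryonic mouse diaphragm, tables of raw UMI counts by spot were deposited by the authors (Visium, FFPE, probe set v1.0, mm10/GRCm38). Per the file headers they come from Space Ranger 2.0.0 (first pair of E14.5 controls, KO of that day) and 2.0.1 (all else), and they are not normalized. Groups follow the sample titles.

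Spots with at least 1000 UMIs were kept. Muscle spots were those above Otsu's threshold of the mean log value (scaled to 10000 UMIs) of 9 sarcomere genes, and the zones of muscle were the top 15% by endplate or myotendinous genes. The study integrated and clustered single spots with Seurat. Here counts were summed per section and area, since spots share their section. The tests were edgeR 4.0.16 quasi-likelihood fits after filterByExpr and TMM scaling, with a Benjamini-Hochberg adjusted p under 0.05 over all genes. Residual degrees of freedom were 3, or 6 for the zones. Scripts were tested on simulated counts. DESeq2 1.42.0, other scalings, filters, spot sets and sections left out were tried as alternatives. Errors of fold changes are edgeR standard errors. Intervals of UMI shares (95%) cover counting error only. Control sections of a stage differed by far more than sampling noise (chi-square per degree of freedom 13.0 to 64.7), so all were counted. Between 150 and 2153 spot barcodes were shared per pair of sections, as capture areas use 1 barcode design.

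Named were the 12 members with the highest mean in muscle, up to 5 called members per muscle comparison and 3 per direction elsewhere, by size of change, and the highest genes of each list. Members and lists were chosen with earlier results of these data known. Of the lists, 42 of 45 S phase and 47 of 54 G2 and M phase genes were measured. Probe sequences were not used here.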

Additional observations from a re-analysis of the deposited data

Results flagged for a closer look

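In 15 members the log2 ratio of muscle to other spots differed between E14.5 and E18.5 controls by a test of the difference itself, against 18.6% of all 15482 genes tested (edgeR, section as block). All 15 are given because the values are the same contrast read at both stages.

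The difference was positive for Hist1h2bc (1.17 ± 0.17, adjusted p = 0.00547), from 0.59 to 1.76, and for Hist2h3c2 (1.495 ± 0.28, adjusted p = 0.0115), from 0.18 to 1.67. It was negative for the linker histones Hist1h1a (-0.68), Hist1h1b (-0.73) and Hist1h1d (-0.56). Hist1h1b had the lowest adjusted p of all members here (0.00499). Among H2A and H2B members the differences were -0.61 for Hist1h2ag, -0.62 for Hist2h2ac, -0.57 for Hist1h2bb, -0.66 for Hist1h2bj, -0.46 for Hist1h2bk and -0.70 for Hist2h2bb. Among H3 and H4 members they were -0.57 for Hist1h3b, -0.56 for Hist1h3c, -0.47 for Hist1h3d and -0.58 for Hist1h4f. In each of the 13 negative cases the estimated ratio was over 0 at E14.5 and under 0 at E18.5, relative to the typical gene. Some of these values were close to 0, such as -0.08 for Hist1h3d and -0.11 for Hist1h2bk at E18.5. At E14.5 none of the 9 members on chromosome 3, among them Hist2h2ac and Hist2h2bb, was called. A change of sign was thus not shown in every case.

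Hist1h2bc, Hist2h3c2 and Hist1h1b remained called under all alternatives run. Over the 15 members and their alternatives, 115 of 150 kept the call, 35 lost it and 0 turned. The losses were those without E14.5 control 1, 2 or 3 or without E18.5 control 2.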

How the results depend on the processing

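The stage comparison in muscle called 29 members, and 25 to 30 with a control left out, and no named member turned its direction. The mutant comparisons, with 1 section each, and the counts by position moved. By library size alone the called members numbered 16 (KO at E18.5), 5 (cKO), 3 (stage difference of the KO effect), 1 (KO against cKO), 2 and 27 (muscle against other spots at E14.5 and E18.5), 23 (their stage difference) and 0 (center against periphery at E14.5). By DESeq2 they were 1 (KO at E14.5), 3 (cKO), 1 (stage difference of the KO effect), 2 (KO against cKO), 12, 1 and 3 (outside muscle, KO at E14.5, KO at E18.5 and cKO) and 1 (center at E14.5). With no filter the cKO had 1 and KO against cKO 2. With the groups compared alone, the KO at E14.5 had 2. In the muscle spots above the median score the cKO had 2, over all kept spots the stage difference of the KO effect had 1, and over spots low in erythroid and hepatocyte genes, added after seeing the data, the cKO had 1. Without the section block the counts were 3 and 6 (muscle against other spots at E14.5 and E18.5) and 0 (center at E14.5). Zones of 10% gave 0 and 1 and zones by distance 0 and 6 (E14.5 and E18.5), and zones of 25% gave 4 at E14.5.

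Leaving out 1 control gave 0 to 3 (KO at E14.5), 3 to 10 (KO at E18.5), 0 to 17 (cKO), 0 to 4 (stage difference of the KO effect), 0 to 2 (KO against cKO), 2 to 17 and 5 to 16 (muscle against other spots at E14.5 and E18.5), 3 to 16 (their stage difference), and 0 to 2 and 0 to 1 (center at E14.5 and E18.5). Ctnnb1 in the cKO changed sign, without a call, to 0.15 by library size and 0.00206 in the spots above the median score. The summed ratio of the KO at E14.5 outside muscle was 1.53 over spots low in erythroid and hepatocyte genes. The causes were not tested.

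For the zones against the muscle between them, the members called in the center and periphery at E14.5 and in both at E18.5, in this order, numbered 1, 11, 8 and 6. By library size alone they were 9, 5, 16 and 17, with no filter 10, 14, 5 and 2, and by DESeq2 1, 1, 3 and 1. DESeq2 size factors gave 5 in the periphery at E14.5. Zones of 10% gave 4, 4 and 2 in the first 3, zones of 25% gave 2 in the center at E14.5, and zones by distance 0 in the first 3. Leaving out 1 control gave 0 to 7, 0 to 12, 0 to 10 and 1 to 8. With zones by distance Hist1h2bc was at -0.15 and -0.22 at E14.5 and 0.039 in the center at E18.5, where Hist1h3a was at -0.059, Hist1h2bk at -0.085 and Hist1h3b at -0.052.

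Replicate numbers of the controls only name sections: deviations of same-numbered sections correlated at -0.33 and -0.32 over 14832 genes. With the replicate number as a block the stage comparison called 26 members in muscle and 12 outside, and the KO at E18.5 1. With 1 section per mutant and 2 controls at E18.5, a count of 0 in a mutant does not show that levels were alike.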
